A study of Morus alba with 35 samples.

Results

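The first 0.5 h of elicitation was examined in cell suspensions of white mulberry (Morus alba) grown from stem tissue. The 3 elicited libraries at 0.5 h, from flasks that received 50 mM MBCD, a methylated cyclodextrin, together with 100 µM MeJA (methyl jasmonate), were set against the 2 control libraries at 0.5 h, from flasks that received only the ethanol carrier, given to all flasks at 2.1 µL per mL. Members were chosen by the treatment and time in the labels, and they make up 5 of the 34 short-read libraries of a time course that also covers 6, 12, 24, 48 and 72 h. All flasks shared the same handling, in which a suspension 14 days old was filtered, washed with water and moved to fresh medium in the dark, so both groups were measured 0.5 h after that transfer. Both elicitors were given together, so their separate effects cannot be told apart. Each replicate was a flask whose parent suspension is not stated, so p-values describe flask-to-flask spread. For the tests of single genes that spread was estimated over all 34 libraries, not from the 5 libraries of 0.5 h alone. Of 31401 annotated genes, 20107 passed the filter on low counts over the whole course and were tested.

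Methyl jasmonate is a volatile form of jasmonate, a plant hormone of wounding and defence. In plants, cells turn jasmonate into an amino acid conjugate that brings the receptor COI1 together with JAZ repressor proteins, and the loss of these repressors frees transcription factors such as MYC2, which makes jasmonate one of the fast-acting switches of plant gene expression. Cyclodextrins are rings of sugar units that elicit stilbenes in cultured grapevine cells, and mulberry makes the stilbene oxyresveratrol. The deposited table names genes by identifier and pairs none with a product, so the genes of these pathways cannot be picked out here, the labelled stem origin cannot be checked against marker genes, and no gene below is given a function.

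The 5 libraries held 17449434 to 18136001 counts, and 21731 to 22827 genes had a count in each. The 1000 most counted genes of a library took 51.7, 52.9 and 54.9% of the counts in elicited replicates 1, 2 and 3, against 49.7 and 50.7% in control replicates 1 and 2. The groups did not overlap in this share, and an exact two-sided permutation test over the 5 libraries gave p = 0.2, the smallest value that 3 libraries against 2 allow.

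At 0.5 h 799 genes (3.97% of those tested) were called, and 4692 had an unadjusted p below 0.05 in the same edgeR quasi-likelihood test. With 2 control libraries, the number of calls is not a measure of the extent of the response, which it may understate or overstate. Transcripts of 470 genes (2.34%) were more abundant in elicited cells and those of 329 (1.64%) less abundant (edgeR quasi-likelihood test on all 34 libraries, Benjamini-Hochberg adjusted p below 0.05). Most changes were small. Among the higher genes 150 changed by less than 1.5-fold, 136 by 1.5- to 2-fold, 121 by 2- to 4-fold and 63 by 4-fold or more. Among the lower genes these numbers were 126, 126, 65 and 12. The 184 genes at least 2-fold higher (0.915%) outnumbered the 77 at least 2-fold lower (0.383%), but with library-size scaling these counts were 151 and 155. The fitted log2 fold changes of the called genes reached 6.51 upward and -4.55 downward. These numbers rested on single libraries: without control replicate 1 the higher and lower genes were 24 and 17, and without elicited replicate 1 they were 1495 and 1515. Measured in whole cultures, a lower level in each cell and a smaller number of cells of some kind cannot be told apart.

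**Figure D1:**
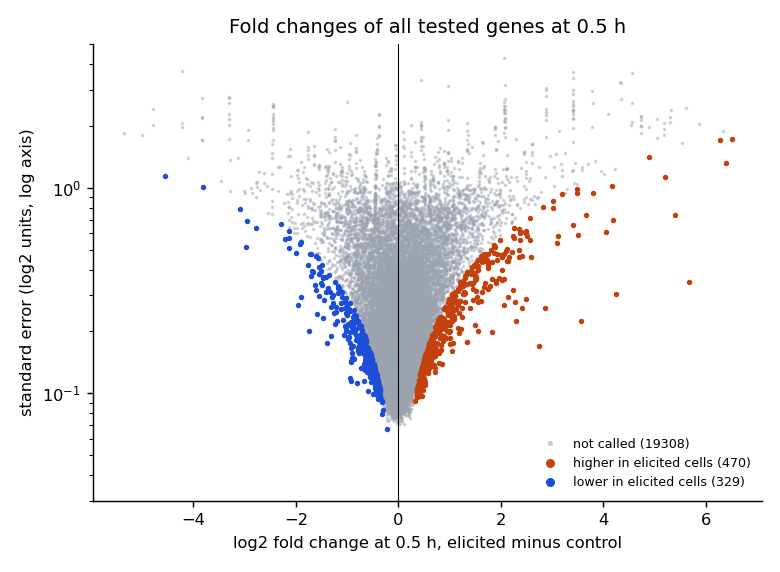
Log2 fold change of each tested gene at 0.5 h, elicited minus control (horizontal axis), against its standard error (vertical axis, log scale); 24 genes with a fitted change of 0 are not drawn. The 470 higher and 329 lower genes lie along the outer edge of the cloud, and the genes with the smallest errors were called at changes well under 2-fold.

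Over all tested genes the middle of the distribution lay near 0, where TMM scaling is meant to place it, so its position is not a result. The median log2 fold change was 0.04, the central 50% of genes lay between -0.22 and 0.30, and the median SE was 0.21. The median absolute change was 0.26, a little above the median SE. The direction of the calls depended on the scaling of the libraries. With TMM scaling 58.8% of the called genes were higher; with library size alone the counts were 253 higher and 895 lower (22% higher), and with upper-quartile scaling they were 414 and 467 (47%). Library-size scaling put the median gene at -0.08, so counts in each direction hold relative to the median gene.

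Calls were more frequent among well expressed genes. With log2 CPM (read counts scaled by library size, on a log scale) averaged over the 5 libraries, 0.613% of the 2774 genes under 0 were called higher and 0.469% lower. Among the 2967 genes from 6 to 8, 4.04% were higher and 2.66% lower. The median SE was 0.74 in the first class and 0.13 in the second, so a change of a given size was detectable far less often in weakly expressed genes. Genes silent under one treatment and clearly expressed under the other were not found at this time: no gene of the table lacked counts in both controls while holding at least 10 counts in every elicited library, and none showed the reverse.

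The greatest increases among genes that passed the expression minimum and did not overlap between the groups were found in Mal_HE_154X_1_chr008g015450 and Mal_HE_154X_1_chr004g010310. The first lies on chromosome 8 (15478402 to 15482068, minus strand, in the coordinates of the deposited table) and has 7 exons with 1712 bases in all. It stood at 21.6, 31.9 and 22.9 CPM in elicited replicates 1, 2 and 3, against 0.613 and 0.369 CPM in control replicates 1 and 2. All elicited libraries held 333 to 478 reads of this gene where the controls held 10 and 6. The log2 fold change was 5.68 (SE 0.35; adjusted p = 1.82e-11, edgeR quasi-likelihood), a 51.2-fold higher level.

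Mal_HE_154X_1_chr004g010310 lies on chromosome 4 (10319814 to 10320613, plus strand) and has 2 exons with 664 bases in all. It was more abundant, at 114, 151 and 156 CPM in elicited replicates 1, 2 and 3, against 8.33 and 6.52 CPM in the controls. Every elicited library was far above both controls, and the log2 fold change was 4.24 (SE 0.30; adjusted p = 3.08e-10, edgeR quasi-likelihood), or 18.9-fold.

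Among genes chosen in this way the decreases were smaller. Under the same expression minimum and without overlap between the groups, the greatest was that of Mal_HE_154X_1_chr014g008470 on chromosome 14 (7249553 to 7253868, minus strand), with 9 exons and 2050 bases. This gene stood at 74.9, 65.8 and 40.1 CPM in elicited replicates 1, 2 and 3, against 280.0 and 190 CPM in the controls. The groups were separated although each spread widely, and the log2 fold change was -1.96 (SE 0.27; adjusted p = 8.32e-05, edgeR quasi-likelihood), a 3.9-fold lower level. Mal_HE_154X_1_chr005g020460 on chromosome 5 (19336019 to 19340137, plus strand), with 5 exons and 1096 bases, stood at 31.0, 30.3 and 23.3 CPM in elicited cells, against 133 and 77.1 CPM in controls. Its log2 fold change was -1.90 (SE 0.29; adjusted p = 0.000441, edgeR quasi-likelihood). The elicited libraries lay close together, but the controls differed between themselves, and without control replicate 1 the adjusted p was 0.0716 at a log2 fold change of -1.45. None of the 4 genes shares exon bases with another annotated gene.

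**Figure D2:**
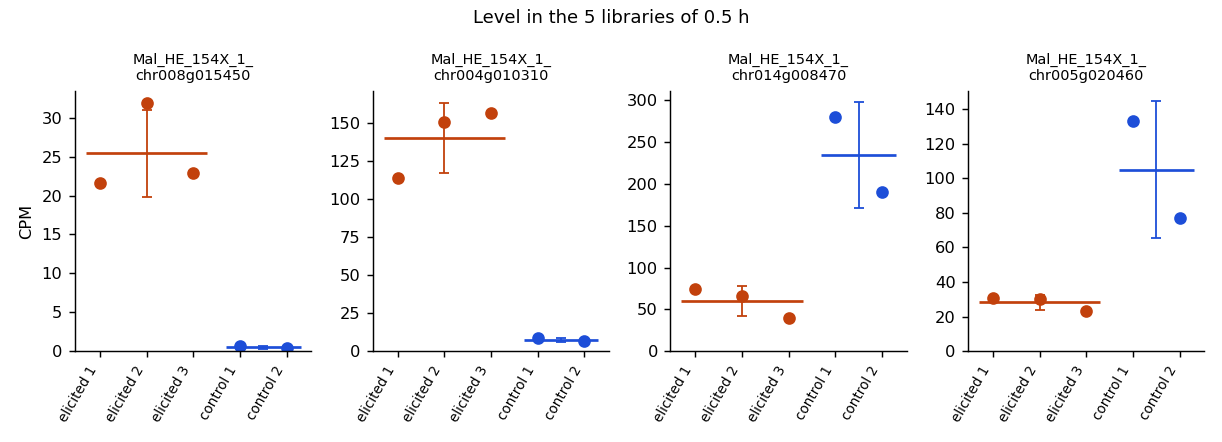
Level in CPM (vertical axes, from 0) of the 4 leading genes in the 3 elicited and the 2 control libraries of 0.5 h; points are libraries, lines the group means and bars 1 SD. The left panels show genes at 25.5 and 141 CPM on average in elicited cells against 0.491 and 7.43 CPM in controls; in the right panels the elicited libraries lie below both controls.

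These 4 genes took different courses after 0.5 h. In elicited cells Mal_HE_154X_1_chr008g015450 averaged 25.5 ± 5.6 CPM at 0.5 h and 23.8 ± 0.114 CPM at 6 h (SD, n = 3 each), and then 13.1 ± 0.803, 7.18 ± 0.703, 8.38 ± 1.6 and 6.58 ± 0.543 CPM at 12, 24, 48 and 72 h (SD, n = 4 each). In controls it stayed between 0.418 and 2.21 CPM on average at all 6 times. Its log2 fold change at 0.5 h exceeded the mean of the 5 later times by 2.20 (SE 0.40), a description only, since the 4 genes were chosen for the same fold changes at 0.5 h. Mal_HE_154X_1_chr004g010310 averaged 141 ± 23 CPM in elicited cells at 0.5 h (SD, n = 3) and between 33.5 and 51.4 CPM at the later times, against 3.45 to 12.5 CPM in controls over all times. Its early effect exceeded the later mean by 1.30 (SE 0.30), with the same limit.

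For the decreases the same difference was smaller than or close to its SE, but the later mean covered effects of unlike size. Mal_HE_154X_1_chr014g008470 averaged 60.3 ± 18.1 CPM at 0.5 h (SD, n = 3), 206 ± 48.1 CPM at 6 h (SD, n = 3) and 95.6 ± 11.6 CPM at 72 h (SD, n = 4) in elicited cells, and 235 ± 63.6, 380 ± 161 and 1007 ± 68.9 CPM at these times in controls (SD, n = 2 each). The early effect minus the later mean was 0.24 (SE 0.30), with log2 fold changes of -0.88 at 6 h and -3.40 at 72 h. For Mal_HE_154X_1_chr005g020460 the early effect minus the later mean was 0.37 (SE 0.33). This gene was not called at 6 h (log2 fold change -0.57; adjusted p = 0.30, edgeR quasi-likelihood) and stood at -3.76 at 48 h. Its elicited level averaged 17.6 to 46.5 CPM over the 6 times, while its control level averaged 45.1 CPM at 6 h and 282 CPM at 72 h.

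The elicited libraries did not depart from the controls to the same extent. Taken as log2 CPM minus the mean of the controls, the central 50% of tested genes spanned 0.39 units in elicited replicate 1, 0.53 in replicate 2 and 0.84 in replicate 3. Differences of at least 2-fold were found in 5.77, 7.98 and 14.7% of genes in the same order. Set against the controls one at a time, elicited replicate 1 had central spans of 0.43 and 0.44 units, replicate 2 of 0.61 and 0.52, and replicate 3 of 0.87 and 0.86, beside 0.37 between the controls. Elicited replicate 1 thus lay little farther from the controls than these did from each other, and replicate 3 much farther. The elicited libraries also differed among themselves more than the controls did, with central spans of 0.50, 0.72 and 0.66 units for replicates 1 and 2, 1 and 3, and 2 and 3.

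Agreement in direction across all genes ranged from slight to moderate, depending on the libraries compared. A difference of an elicited and a control library was set beside the difference of another elicited library and the other control, so that no library was shared. Over the 6 such pairs, Pearson's r across 20107 genes was 0.18 to 0.46 and Spearman's rho 0.12 to 0.49. The share of genes with the same sign was 53.8 to 69.9%. Genes are not independent replicates, and library-wide trends such as that with gene length below enter these values, so they are descriptions. All 3 elicited libraries lay above both controls in 19.1% of tested genes and below both in 15.9%.

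Among the called genes the single libraries pointed the same way, by differences of different size. These genes were chosen on the same libraries, so the values describe them only. Of the 470 higher genes, 447 had no overlap between the groups, and 328 of the 329 lower genes had none. The median difference of the higher genes from the control mean was 0.52, 0.75 and 1.01 log2 units in elicited replicates 1, 2 and 3, and that of the lower genes -0.45, -0.61 and -1.01. Replicate 1 was the least changed of the 3 in 327 of the higher and 221 of the lower genes, and replicate 3 the most changed in 330 and 260. For the 184 genes at least 2-fold higher, replicates 2 and 3 were alike, with medians of 1.77 and 1.83, and replicate 1 stood at 1.17. For the 77 at least 2-fold lower, replicates 1 and 2 were alike, at -1.16 and -1.18, and replicate 3 stood at -1.89.

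The number of called genes depended on which library was present. In edgeR quasi-likelihood fits without elicited replicate 1, 2 or 3 the higher and lower genes numbered 1495 and 1515, 541 and 374, and 94 and 42. Without control replicate 1 or 2 they numbered 24 and 17, and 69 and 63. With only the 5 libraries of 0.5 h in the fit they were 49 and 14. Of the 470 higher genes, 19 were also called in all 5 fits that left out a library, and of the 329 lower genes 10 were. The 19 higher genes had a median log2 fold change of 2.29, and each was at least 2-fold higher. The 10 lower genes had a median of -1.09, and 5 of them were at least 2-fold lower.

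The direction of change followed gene length. Tested genes were divided by summed exon length into 5 classes of about equal size. In the shortest class (270 to 948 bases) 5.24% of genes were called higher (Wilson 95% interval 4.59 to 5.97%) and 0.397% lower (0.245 to 0.644%). In the longest class (2493 to 16591 bases) 0.473% were called higher (0.303 to 0.737%) and 4.83% lower (4.21 to 5.53%). Over called and uncalled genes together, the median log2 fold changes ran 0.28, 0.16, 0.07, -0.04 and -0.21 from the shortest to the longest class. In fits without 1 library the median length of the higher calls was 965 to 1245.5 bases and that of the lower calls 2030.5 to 2932 bases, beside 1585 for all tested genes.

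The trend was present in all 3 elicited libraries and differed in strength. The median difference of the shortest class from the control mean was 0.12 in elicited replicate 1, 0.20 in replicate 2 and 0.44 in replicate 3, and that of the longest class was -0.06, -0.19 and -0.41. Between the controls the same medians were -0.04 and 0.03. As a rank correlation across genes of length with the deviation of a library from the gene's mean over all 34 libraries, it was -0.11, -0.18 and -0.31 in the elicited replicates, against -0.02 and -0.05 in the controls. The other 29 libraries lay between -0.12 and 0.16, so elicited replicates 2 and 3 at 0.5 h lay outside that range. The mean of the elicited libraries was -0.20 ± 0.10 (SD, n = 3) and that of the controls -0.03 ± 0.02 (SD, n = 2), with p = 0.2 in an exact two-sided permutation test, the smallest this design allows.

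**Figure D3:**
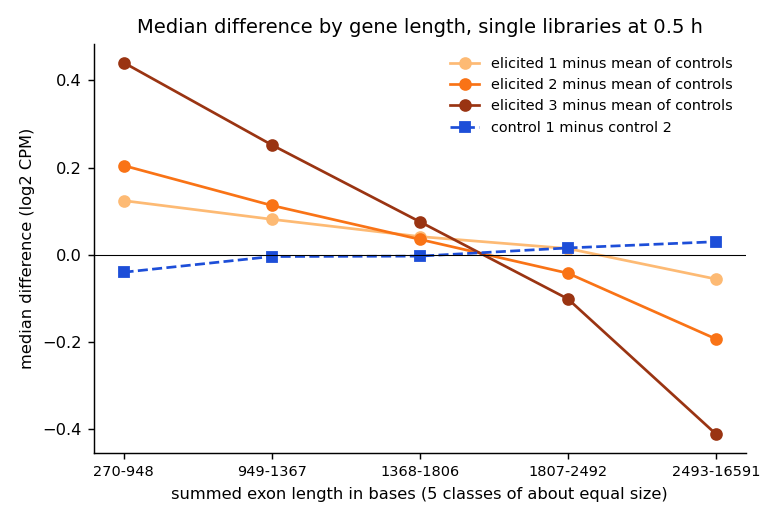
Median difference in log2 CPM (vertical axis) by class of summed exon length in bases (horizontal axis), for each elicited library of 0.5 h minus the mean of the controls and for control 1 minus control 2. The lines of the elicited libraries fall with length, from 0.44 to -0.41 in elicited replicate 3, and the line of the controls stays between -0.04 and 0.03.

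Taking this trend out of every library lowered the number of calls. With an offset for the lowess trend of each library over length, an alternative added after the data were seen, 215 genes were higher (1.07%) and 136 lower (0.676%) by the same edgeR test. Of the 470 higher genes 184 (39.1%) were also called with the offset, and of the 329 lower genes 126 (38.3%) were. The 121 genes then at least 2-fold higher compare with 184 before, and the 57 at least 2-fold lower with 77. The share of higher calls was 1.07% in the shortest class and 1.09% in the longest. The median length of the higher calls was 1553 bases with the offset and 1028 without it, and that of the lower calls 1832 and 2768. All 19 higher and 10 lower genes that were called without any 1 library were also called with the offset, and 18 and 7 of them were called in all 5 fits that combined the offset with leaving out a library. The log2 fold changes of the 4 leading genes with the offset were 5.67, 4.02, -1.91 and -2.01, in the order in which they were named. The length trend also differed between libraries of the same treatment, and its source was not tested. The labels give only a minimum RNA integrity number of 7, the same for all 5 libraries. RNA quality could therefore not be compared between them.

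**Figure D4:**
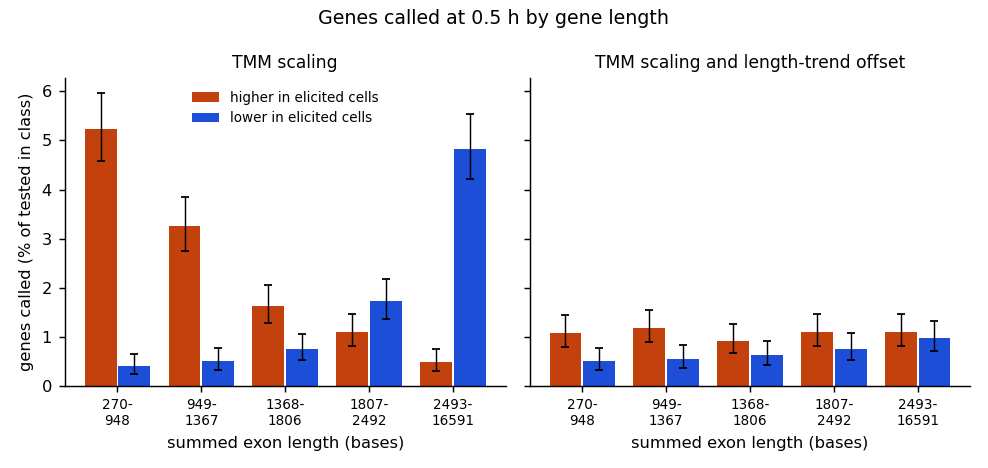
Percentage of the tested genes called higher or lower in elicited cells at 0.5 h in each of 5 classes of summed exon length; left with TMM scaling, right with the length-trend offset added, bars with Wilson 95% intervals. On the left the higher calls fall from 5.24 to 0.473% with length and the lower calls climb from 0.397 to 4.83%; on the right no share exceeds 1.17%.

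Single-exon genes were frequent among the larger increases, and within the 2 shortest length classes too. They made up 15.8% of the tested genes and 40.8% of the 184 genes at least 2-fold higher (75 genes). Put as a share of each kind, 2.36% of the 3174 single-exon genes were called at least 2-fold higher (Wilson 95% interval 1.89 to 2.95%), against 0.644% of the 16933 genes with 2 or more exons (0.534 to 0.776%). Within the shortest class these shares were 3.78% (2.81 to 5.07%) and 1.27% (0.921 to 1.74%), and within the next class (949 to 1367 bases) 3.24% (2.06 to 5.06%) and 0.895% (0.632 to 1.27%). In the 3 longer classes the shares were 1.29, 1.26 and 0.407% of single-exon genes and 0.516, 0.480 and 0.170% of the others, with overlapping intervals in each class. Counted without the 2-fold minimum, the higher calls in the shortest class made up 5.14% (3.98 to 6.60%) of single-exon genes and 5.27% (4.52 to 6.15%) of the others, so the intervals overlapped. Single-exon genes were less abundant, with a median of 2.18 log2 CPM against 4.00, and had a larger median SE, 0.34 against 0.19. With the length-trend offset 1.35% (1.01 to 1.82%) of single-exon genes and 0.461% (0.369 to 0.574%) of the others were at least 2-fold higher. The contrast was less clear with a control left out. In each such fit, with and without the offset, the Wilson 95% intervals of both kinds overlapped. The share of single-exon genes was the larger except with the offset and without control replicate 2. These fits held a lone control, so they cannot decide whether the contrast rests on the controls.

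Genes that were higher at 0.5 h were often higher later too. The fold changes of the later times come from other libraries, but all 34 libraries set the filter and the shared spread behind the calls at every time. Of the 184 genes at least 2-fold higher, 58 were called higher at 6 h (31.5%), where 3.64% of all tested genes were. The same count was 108 at 12 h (58.7%, against 12.8% of all), 124 at 24 h (67.4%, against 21.7%), 110 at 48 h (59.8%, against 26.5%) and 117 at 72 h (63.6%, against 22.3%). Their median log2 fold change was 1.67 at 0.5 h, where it was selected, and 0.77, 1.33, 1.73, 1.61 and 1.76 at the later times. Over the full set of 470 the share called higher was 38.5% at 12 h, 47.9% at 24 h and 47.4% at 48 h. Of the 470, 94 genes (20%) were called in neither direction at any later time, and of the 184, 16 (8.7%), beside 31.4% of all tested genes. At some later time 99 of the 470 (21.1%) were called lower, beside 36.1% of all.

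For the lower genes the later shares lay nearer to those of all tested genes. Of the 77 genes at least 2-fold lower, 8 were called lower at 6 h (10.4%, against 2.6% of all tested), 24 at 24 h (31.2%, against 17.9%) and 21 at 72 h (27.3%, against 21.8%). Their median log2 fold change was -1.44 at 0.5 h, where it was selected, and between -0.39 and -0.21 at the later times. Of the full set of 329, 25 were called lower and 10 higher at 6 h (7.6 and 3.04%, against 2.6 and 3.64% of all tested). At 12 h 40 were lower and 41 higher (12.2 and 12.5%, against 10.2 and 12.8%). At 48 h 78 were lower and 81 higher (23.7 and 24.6%, against 25.1 and 26.5%).

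The genes called without any 1 library of 0.5 h were few. Of the 19 higher genes, 14 were called higher at 6 h and 18 at each of 12, 24, 48 and 72 h. Over all tested genes 3.64% were called higher at 6 h, and 12.8, 21.7, 26.5 and 22.3% at those later times. The 19 genes had a median log2 fold change of 2.29 at 0.5 h, 1.87 at 6 h and 3.09 at 48 h. Of the 10 lower genes 3 were called lower and 2 higher at 6 h, beside 2.6 and 3.64% of all tested genes. At 48 h 3 were lower and 5 higher (25.1 and 26.5% of all tested), and at 72 h 5 were lower and 4 higher (21.8 and 22.3%).

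**Figure D5:**
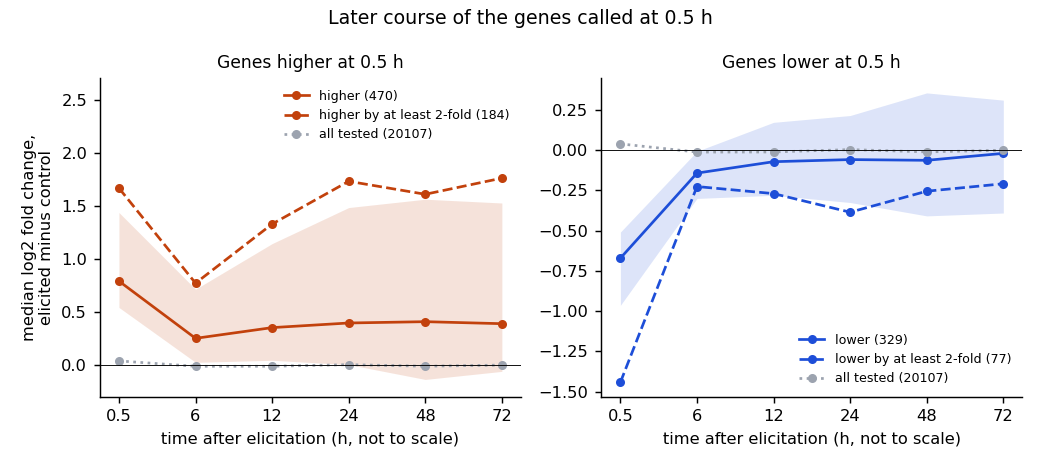
Median log2 fold change, elicited minus control, at the 6 times (horizontal axis, spacing not to scale) of the genes called at 0.5 h, with the quartiles of the full sets shaded, beside all tested genes. The 184 genes at least 2-fold higher at 0.5 h had medians of 0.77 to 1.76 later, and the 329 lower genes had medians between -0.14 and -0.02 later.

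In a direct contrast of the effect at 0.5 h with the mean effect of the 5 later times, 6114 genes (30.4%) were called (edgeR quasi-likelihood, adjusted p below 0.05). It was more positive at 0.5 h for 2950 of them (14.7%) and more negative for 3164 (15.7%), and without control replicate 2 at 0.5 h the 6114 were 3750. Of the 470 higher genes 196 had a more positive effect at 0.5 h than later and 53 a more negative one. Of the 329 lower genes 223 had a more negative effect and 7 a more positive one. These genes were chosen for their values at 0.5 h, which the contrast also uses, so the counts are given as descriptions.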

How the data were processed

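The deposited values are whole-number read counts per gene, not normalized by the authors, with exon coordinates in the file header; fastp, STAR and featureCounts are named in the submitters' processing notes. Versions, genome build, annotation and strand setting: not given in the sources used here. A stranded mRNA kit was used, per the labels. Exon bases overlap another gene in 2390 genes of the table (2019 tested), and reads of such genes may not be separable.

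Counts were analysed in R 4.3.3 with edgeR 4.0.16 (filterByExpr with a minimum count of 10, TMM, glmQLFit and glmQLFTest), with a mean for each of 12 groups fitted to 34 libraries (22 elicited, 12 control), so the spread is shared over all times. P-values were adjusted by Benjamini-Hochberg over 20107 genes and called below 0.05. Standard errors were derived from each fold change and its F statistic. Log2 CPM used a prior count of 2; CPM used TMM-scaled library sizes. The first 2 genes by fold change in each direction were named among called genes whose groups did not overlap and whose log2 CPM averaged 2 or more; 400 higher and 282 lower genes qualified. The length trend was a lowess fit with a span of 0.3. Alternatives used DESeq2 1.42.0 and limma 3.58.1. Pairs of libraries of the same group at 0.5 h differed by 11.1 to 44.8 in chi-square per degree of freedom, far more than sampling noise, and each counted as 1 replicate. Intervals cover counting error only. The comparison and the lists were chosen with earlier results of these data known. The planned keyword groups of genes were not formed, since no identifier could be matched to a product. A pooled long-read sample was not analysed here.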

Additional observations from a re-analysis of the deposited data

Results flagged for a closer look

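Effects that differ between times, by the contrast of 0.5 h with the mean of the later times in the edgeR fit, were called for 6114 genes. Among the 4 leading genes both increases were in this count. These genes were chosen for their fold changes at 0.5 h, which the contrast reuses, so their values are a description: the log2 fold change of Mal_HE_154X_1_chr008g015450 was greater at 0.5 h than later by 2.20, and that of Mal_HE_154X_1_chr004g010310 by 1.30. For each of these genes all 3 elicited libraries lay above both controls at 0.5 h. No library stood apart by Dixon's criterion in the 16 groups of 4 elicited libraries examined for the 4 leading genes, all of 12 to 72 h. Groups of 3 and 2 libraries were not examined, so this says nothing about the libraries of 0.5 h.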

How the results depend on the processing

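Counts of higher and lower genes at 0.5 h (470 and 329) became 253 and 895 with library-size scaling, 49 and 14 with the 5 libraries of 0.5 h alone, 861 and 656 with DESeq2, and 215 and 136 with the length-trend offset. At 2-fold or more (184 and 77) they were 49 and 10 with the 5 libraries alone; with library-size scaling they were 151 and 155; the lower ones were 44 with limma voom and quality weights, and the higher ones 121 with the offset. With any 1 library of 0.5 h left out the ranges were 24 to 1495 higher and 17 to 1515 lower, and 22 to 373 and 11 to 304 at 2-fold or more; with the offset as well they were 22 to 665, 16 to 523, 20 to 245 and 8 to 190. In that order these combined fits gave 250, 181, 102 and 86 without elicited replicate 2, 70, 39, 55 and 13 without elicited replicate 3, and 54, 46, 49 and 28 without control replicate 2. The count of effects that differed between times (6114) ranged from 3750 to 6361 without 1 library and from 3605 to 6091 with the offset as well. The cause of these shifts was not tested. Where a control was left out, the lone control was assumed to vary like the other groups. The fit to the 5 libraries alone cannot give the contrast with later times. The replicate block on the numbers in the titles gave 109 higher and 42 lower genes, 80 and 17 at 2-fold or more; the deviations of same-numbered libraries correlated at 0.11 and 0.14 across genes, the labels do not say that a number marks a shared source, and so these numbers were not taken as pairs. The column names number the flasks otherwise, and the groups share only number 4 there, so no block could be formed from them. Upper-quartile scaling, no filter, a minimum count of 50 and leaving out genes that share exon bases each kept these 5 counts within 1.5 times. Over 20 alternatives the 4 leading genes kept their direction, and 3 of them stayed called in all 20; Mal_HE_154X_1_chr005g020460 was called in 18, the exceptions being the fits without control replicate 1, with and without the offset (log2 fold changes of -1.55 and -1.45). Depth limits the weakly expressed genes most: the median SE was 0.74 under 0 log2 CPM.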

Other observations

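Genes called at 0.5 h were spread over all 14 chromosomes. The share of tested genes called in either direction was lowest on chromosome 3, at 2.66% (19 higher and 13 lower of 1204), and highest on chromosome 14, at 5.20% (37 higher and 22 lower of 1134), beside 3.97% over all tested genes. For the higher calls the Wilson 95% intervals were 1.01 to 2.45% on chromosome 3 and 2.38 to 4.46% on chromosome 14. For the lower calls they were 0.632 to 1.84% and 1.28 to 2.92%. The intervals overlapped within each direction. No interval was computed for both directions together, so they do not say whether the ranked shares differ.

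Some called genes were neighbours. In the order of the tested genes along the chromosomes, 68 of 467 higher genes (14.6%) stood next to another higher gene, and 32 of 326 lower genes (9.82%) next to another lower gene. Over all tested genes 2.34% were called higher and 1.64% lower. Most genes have a neighbour on each side, so a random order would give larger shares of neighbours than these percentages. Whether called genes were neighbours more often than in a random order was not tested. In 13 of the 37 adjacent higher pairs and 8 of the 17 adjacent lower pairs both genes share exon bases with some annotated gene, where reads may be counted for both. The longest run held 4 higher genes.

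The sample quality weights that limma voom estimated from the spread of each library were 0.257 for elicited replicate 3, 0.479 for elicited replicate 1 and 1.04 for elicited replicate 2, against 1.15 for each control.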
